A study of Mus musculus with 2 samples.

Results

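The cells described here are the smooth muscle cells (SMCs) of the wild-type mouse colon, a class that could also hold myofibroblasts. They were chosen by 4 genes in the deposited single-cell table. A cell was taken when Myh11, which encodes the smooth muscle myosin heavy chain, had a corrected count of at least 5, the epithelial gene Epcam was below 5, the pericyte gene Rgs5 below 10 and the endothelial gene Pecam1 below 3. The rule gave 834 of the 7495 cells of the library, or 834 of the 4487 cells with Epcam below 5, and the remaining 3653 of these served as the comparison. Because measured values chose the cells, the levels of the 4 genes are not results, and every gene measured in the same cells is given as a description with no test.

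Single-cell RNA was sequenced from colonic tissue of C57BL/6 mice, in which epithelial and mesenchymal fractions were dissociated separately, sorted as EpCAM-positive or EpCAM-negative cells without CD45, and mixed in equal parts. Cells of 3 female mice aged 8 to 12 weeks were pooled into 1 library made with the V3 kit, and no column assigns a cell to a mouse. Of the reporter library, made with the V2 kit from GFP-positive cells of Pdgfra-H2B-eGFP mice, only a count is used below. There is thus 1 sample per condition, no difference has a replicate check, and no p-value is given.

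Intestinal SMCs build the muscle layers and the thin muscle of the mucosa, and contract when calcium switches on myosin light chain kinase. Actin filaments pull on dense bodies in the cytoplasm and on dense plaques at the membrane, which take the place of Z-discs and costameres of striated muscle. In development the layers form under hedgehog signals from the epithelium, and the mature muscle is paced by interstitial cells of Cajal and driven by enteric neurons.

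Values are corrected counts, the whole numbers that SCTransform returns when it adjusts the unique molecular identifiers of every cell to a common depth. The total per cell had a median of 8437.5 in the SMCs and 8299 in the comparison cells, the median number of genes above 0 was 2656 and 2480, and mitochondrial genes made up a median of 9.73% and 8.48% of the total. A level is the mean corrected count per cell, and a difference is the log2 ratio of 2 such means after adding 0.01 to each. Against the comparison cells, a gene was kept when its mean over all cells with Epcam below 5 was at least 0.05. It counted as higher or lower at a 2-fold ratio. The SMCs are part of that mean, so a gene near 0 in the comparison cells could be kept through the SMCs alone. Such genes, Actc1 and Itga8 among them, can raise the counts of higher genes, and genes near 0 in the SMCs those of lower genes.

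Markers other than the 4 genes of the rule were read in the same cells. The lists were chosen with earlier results of these data known. Their sums are thus a description and no test of the smooth muscle label. All 9 remaining genes of the smooth muscle list were at least 2-fold higher in the SMCs than in the comparison cells, and their summed level averaged 244 per cell against 14.97. The 7 remaining endothelial markers summed to 0.157 per cell against 12.1, glial markers to 0.0935 and immune markers to 0.0168. Ptprc, the gene of CD45 and so of the sort, was at 0 in all 834 cells, which allows a share of cells with a count of up to 0.36% and sets no limit on cells that express it. At 0 were also 4 of 5 mesothelial markers. Fibroblast markers were not absent, with a sum of 73.6 against 255.6 in the comparison cells, and neither were the 8 remaining epithelial markers, with 3.98 against 6.46. The 9 remaining pericyte markers summed to 2.22 against 2.85, those of interstitial cells of Cajal to 0.222 against 0.824, and of neurons to 0.213 against 0.135. Red blood cell markers had a median sum of 0 and a 95th percentile of 1 in both, and in the SMCs 2 cells with very high haemoglobin values set their mean. No list used here separates a myofibroblast from an SMC.

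Contractile genes and several genes of secreted or regulatory proteins were among those with the largest ratios. Of 9895 genes kept, 509 were higher in the SMCs (5.14%) and 1137 lower (11.5%), and the median log2 ratio over all of them was -0.04. Among the 25 genes with the largest ratio, the actins Actc1 and Actg2, calponin (Cnn1), leiomodin (Lmod1), alpha smooth muscle actin (Acta2), transgelin (Tagln), the regulatory light chain Myl9, tropomyosin (Tpm2) and myosin light chain kinase (Mylk) belong to the contractile apparatus. The same set held Hhip, which binds hedgehog ligands, Pdgfc, a ligand of the PDGF receptor alpha, Chrdl2, a relative of the BMP antagonist chordin, and Myocd, the cofactor of serum response factor. Cdh6 encodes a cadherin, Itga8 an integrin subunit, Asb2 a part of a ubiquitin ligase and Kcnmb1 the beta subunit of a calcium-activated potassium channel. The other members of the set were Pde6h, Sh3bgr, Ctxn1, Sntg2, Pnck, Dtna, Frem2 and Ank1. The cells differed among themselves even in these genes.

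**Figure D1:**
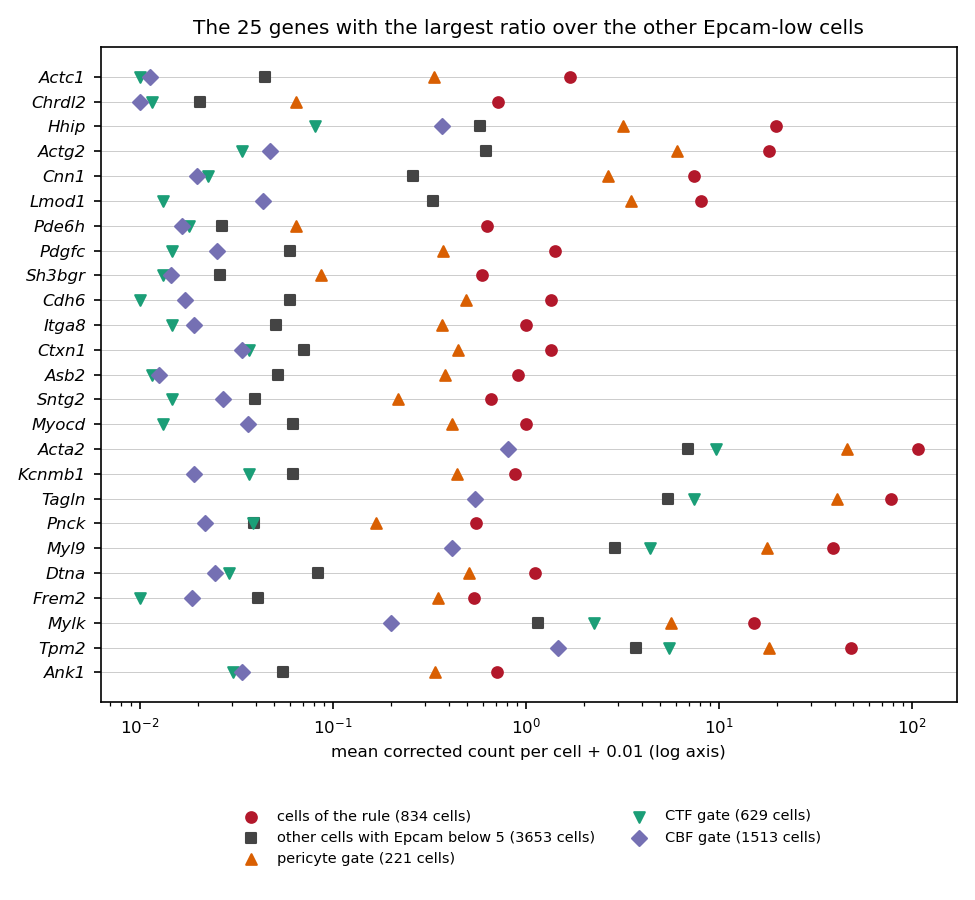
Mean corrected count per cell plus 0.01, on a log axis, of the 25 genes with the largest ratio, for the 834 SMCs (red circles), the 3653 other cells with Epcam below 5 (grey squares) and the pericyte, crypt-top fibroblast (CTF) and crypt-bottom fibroblast (CBF) gates of 221, 629 and 1513 cells. The pericyte gate lies between the SMCs and both fibroblast gates for each of the 25 genes, with Acta2 at 108 in the SMCs and 46.3 in the pericyte gate.

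Actg2 (chromosome 6, 83512905 to 83536265, in GRCm38) had a mean of 18.2 in the SMCs and 0.618 in the comparison cells, a log2 ratio of 4.86. In single SMCs it ran from 0 to 75 with a median of 17, and it was above 0 in 98.6% of them (exact Clopper-Pearson 95% interval 97.5% to 99.3%, which covers counting error only). In the comparison cells the share was 6.62%, and in the 3008 epithelial cells, which should lack the gene, it was 2.59%, at a median total of 9648. Actg2 was thus detected in nearly every cell of the class.

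Hhip (chromosome 8, 79965851 to 80058006) had means of 19.8 and 0.569, a log2 ratio of 5.09. Single SMCs ran from 0 to 80, with a median of 18 and quartiles of 10 and 27. Hhip was above 0 in 95.4% of the SMCs (93.8% to 96.8%), 12.4% of the comparison cells and 2.39% of the epithelial cells. The classes overlapped, with 38 of the SMCs at 0 and 452 of the comparison cells above 0.

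Actc1, the cardiac actin gene, had a log2 ratio of 5.26 (1.70 against 0.0345) and was above 0 in only 39.8% of the SMCs. Its place as the largest ratio depended on the setting, since with a pseudocount of 0.1 it was 3.74 and that of Hhip 4.89. Chrdl2 was also found in a minority, with means of 0.712 and 0.0107 and 34.4% of SMCs above 0. Pdgfc was above 0 in 72.7% of SMCs and 3.31% of the comparison cells, at means of 1.42 and 0.0504 (log2 4.56). A large ratio thus did not need a gene to be found in most SMCs.

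Of 18 contractile filament genes, 17 were kept, as Myh11 chose the cells. Of these, 14 were higher, 1 was lower and 2 were between, with a median log2 ratio of 2.71. Acta2 averaged 108 against 6.91 (log2 3.97), and was above 0 in every SMC, with values from 5 to 348. Tpm1 (28.2 against 4.30) and Myl6 (69.6 against 13.1) were also high in the comparison cells, with log2 ratios of 2.71 and 2.41. The lower gene was the non-muscle myosin heavy chain Myh9, which averaged 0.781 in SMCs and 1.79 in the comparison cells (log2 -1.19). Myh10 averaged 0.155 and 0.278, a ratio under 2-fold. Cytoplasmic gamma actin (Actg1) averaged 16.6 and 14.1, a ratio under 2-fold.

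Smooth muscle genes are read through serum response factor, which binds the CArG box, and Myocd, its cofactor, was itself among the leading genes (1.00 against 0.0523, log2 4.02). The RefSeq promoters of GRCm38.p6, from 250 bases before to 50 bases after each gene start, were searched for the exact CArG box, which reads alike on both strands. A box was held by 5 of the 14 contractile filament genes with an entry (35.7%) and by 4 of the 24 dense body and plaque genes (16.7%). It was held by 4 of the 17 leading genes with an entry (23.5%), by 26 of the 362 higher genes with an entry (7.18%) and by 1.63% of all 32851 promoters searched. A match is a description of the letters and not a site shown to be bound. The boxes of the 4 leading genes and, for contrast, that of Actg1, which was not 2-fold higher, are given 5′ to 3′ on the strand of the gene with the box in capitals.
Actc1, 47 bases before the start, chr2:114052893-114052942, minus strand: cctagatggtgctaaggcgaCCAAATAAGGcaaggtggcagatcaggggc
Myl9, 161 bases before, chr2:156775283-156775332, plus strand: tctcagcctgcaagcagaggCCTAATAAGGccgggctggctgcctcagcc
Asb2, 64 bases before, chr12:103356036-103356085, minus strand: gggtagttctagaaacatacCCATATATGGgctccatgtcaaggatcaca
Pdgfc, 17 bases before, chr3:81036379-81036415, plus strand: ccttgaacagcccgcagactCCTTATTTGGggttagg
Actg1, 90 bases before, chr11:120348556-120348605, minus strand: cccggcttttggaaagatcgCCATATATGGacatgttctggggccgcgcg
The boxes of Asb2 and Actg1 have the same letters, while their log2 ratios were 4.14 and 0.24. The contractile genes Acta2, Cnn1, Lmod1, Mylk and Tpm2 had an entry but no exact box in this window. The same held for Hhip, Cdh6, Kcnmb1, Itga8, Pde6h, Ctxn1, Sntg2 and Frem2. Actg2, Tagln, Myh11, Myocd and Chrdl2 had no entry, so their promoters were not searched.

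Genes of dense bodies and dense plaques were higher as a group than in the comparison cells. Of 24 kept genes 18 were higher and none lower, with a median log2 ratio of 1.65. Filamin A (Flna), which crosslinks actin, averaged 13.5 against 1.48 (log2 3.18), dystrophin (Dmd) 2.19 against 0.322 (log2 2.73) and vinculin (Vcl) 3.79 against 1.01 (log2 1.89). Itga8, whose protein pairs with beta 1 integrin at the plaque, had the largest ratio of the list (0.995 against 0.0411, log2 4.30). Its partner Itgb1 averaged 9.82 against 3.88, and the other alpha chains varied, with Itga1 at 2.21 against 0.933 and Itga5 at 0.480 against 0.262. Vimentin (Vim), an intermediate filament of mesenchymal cells, differed little, at 18.9 and 22.4. Against the pericyte gate only 6 of 26 genes of the list were higher and 1 was lower (median log2 ratio 0.81). Against the CTF gate 17 of 25 and against the CBF gate 20 of 25 were higher, with none lower.

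Desmin (Des), the muscle intermediate filament, was uneven. Its mean was 1.79 against 0.419 (log2 2.07), its median in single SMCs was 1 and its highest value 51, and 51.2% of SMCs were above 0. In the pericyte gate the Des mean was higher than in the SMCs, at 2.79.

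Contraction is set by phosphorylation of Myl9. Of 12 kept genes that control it, 6 were higher and none lower (median log2 ratio 0.94). Mylk, the kinase, averaged 15.2 against 1.15. Both myosin-targeting subunits of the phosphatase, Ppp1r12a and Ppp1r12b, averaged 4.37 against 1.08 and 2.01 against 0.275, and its inhibitor Ppp1r14a 10.2 against 2.01. The genes shared by most cell types, Rhoa and Rock2, lay between, with log2 ratios of -0.25 and 0.21.

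Among calcium handling and channel genes 7 of 15 kept genes were higher and 1 lower (median log2 ratio 0.77). Kcnmb1 and Kcnma1, the subunits of the large-conductance potassium channel, averaged 0.876 against 0.0520 and 0.597 against 0.0548. The L-type and T-type calcium channel genes Cacna1c and Cacna1h averaged 0.222 against 0.0422 and 0.571 against 0.0416, and Trpc6 averaged 0.465 against 0.0235. These 3 genes were under 0.05 in the comparison cells and were kept through the SMCs. Their place among the higher genes was thus partly set by the filter. Casq2, a calcium store protein best known from the heart, averaged 1.97 against 0.368 and was above 0 in 64.7% of SMCs. The ryanodine receptor Ryr2 was above 0 in 1.20% and phospholamban (Pln) in 1.68% of SMCs, and both were thus close to 0. The gene lower in SMCs was Ano1, the chloride channel of interstitial cells of Cajal (0.0588 against 0.186).

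Of the nitric oxide and cyclic GMP pathway, through which enteric neurons relax the muscle, 3 of 7 kept genes were higher and 1 lower. The cyclic GMP kinase Prkg1 averaged 0.315 against 0.0840, its substrate Mrvi1 0.825 against 0.194 and the phosphodiesterase Pde5a 1.93 against 0.743. Both chains of the nitric oxide receptor were below 2-fold, with Gucy1a3 at 1.45 against 0.968 and Gucy1b3 at 1.43 against 0.851. The gene lower in SMCs was the endothelial synthase Nos3. Against the pericyte gate none of 6 genes of the list was higher and 1 was lower (median log2 ratio -0.54). Against the CTF gate 1 of 6 and against the CBF gate 4 of 6 were higher, with none lower.

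Receptors of smooth muscle agonists did not share a direction. Of 32 in the table only 14 were kept, 3 of them higher and 6 lower, with a median log2 ratio of -0.69. Bdkrb2, the bradykinin receptor, averaged 1.57 against 0.289 and was above 0 in 65.7% of SMCs. The endothelin receptor Ednra averaged 1.22 against 0.507 and the vasopressin receptor Avpr1a 0.313 against 0.111. The muscarinic receptors, through which acetylcholine contracts gut muscle, were hardly detected: Chrm2 in 2 of 834 SMCs (0.240%, 0.0291% to 0.864%) and Chrm3 in 1 (0.120%, 0.00304% to 0.666%). In the comparison cells these shares were 1.70% and 0.794%, and Chrm3 was above 0 in 3.16% of epithelial cells. The tachykinin receptor Tacr2 was found in 4.08% of SMCs and 0.246% of comparison cells.

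**Figure D2:**
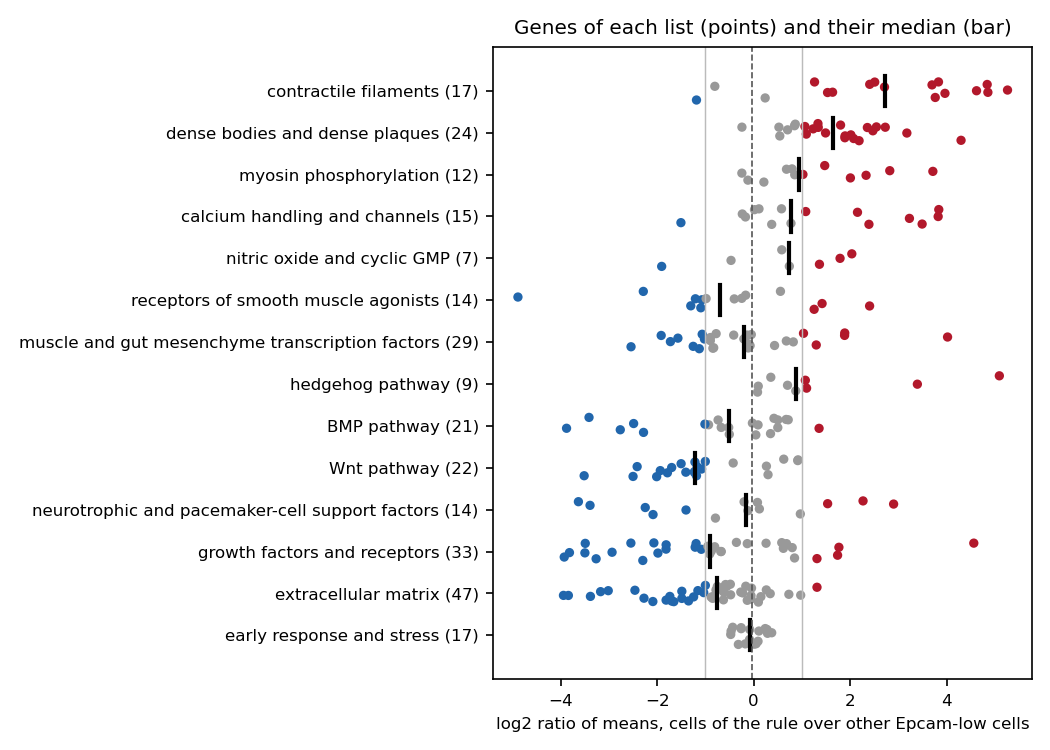
Log2 ratio of mean corrected counts of the SMCs over the other cells with Epcam below 5 for the kept genes of 14 functional lists (points; number of genes in brackets), with the median of each list as a bar and that of all kept genes as a dashed line at -0.04. Red and blue points are 2-fold or more higher and lower. The medians of the contractile filament (2.71) and dense body (1.65) lists lie to the right of every other list and that of the Wnt pathway (-1.22) farthest to the left.

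The hedgehog pathway was higher in SMCs in 4 of 9 kept genes and lower in none, with a median log2 ratio of 0.87. No ligand gene was seen at a level to speak of, with Shh at 0 in every cell with Epcam below 5 and Ihh above 0 in 0.480% of SMCs. Gas1, a surface coreceptor for hedgehog ligands, averaged 5.29 against 0.494 (log2 3.39) and was above 0 in 79.7% of SMCs. Its relative Boc averaged 0.183 against 0.109, and Cdon was above 0 in 0.120% of SMCs. The receptor and target gene Ptch1 averaged 3.28 against 1.53 and the target Gli1 0.347 against 0.185. Ptch1 was no higher in SMCs than in the CTF gate, where it averaged 3.76, while Hhip averaged 0.0715 and Gas1 0.0493 there. In the CBF gate Hhip averaged 0.357, Gas1 0.817 and Ptch1 1.13. In all, 4 of 9 kept genes were higher in SMCs than in the CTF gate, 3 of 9 than in the CBF gate and 2 of 9 than in the pericyte gate. The signal transducer Smo averaged 0.380 against 0.355 in the comparison cells.

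Of 29 kept transcription factors of muscle and gut mesenchyme, 5 were higher, 8 lower and 16 between (median log2 ratio -0.20). Beside Myocd the higher ones were Tbx2 (1.20 against 0.316), Foxf2 (1.18 against 0.473), Foxl1 (0.670 against 0.174) and serum response factor itself (Srf, 0.577 against 0.277). Foxl1, used elsewhere as a marker of subepithelial telocytes, averaged about as much in SMCs as in the CTF gate (0.653), and was above 0 in 43.8% of SMCs. Nkx2-3 (3.50 against 2.59), Foxf1 (3.24 against 1.83) and Tcf21 (6.90 against 7.14), factors of the gut mesenchyme at large, were shared. Among the lower ones were Klf2 (1.77 against 5.28), Heyl (0.00839 against 0.0972) and Twist1 (0.0671 against 0.245).

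Wnt pathway genes were lower against the comparison cells and not against the pericyte gate. Of 22 kept genes none was higher and 16 were lower, with a median log2 ratio of -1.22. Against the pericyte gate 2 of 14 were higher and 2 lower (median -0.13), against the CTF gate 1 of 16 was higher and 8 lower (-1.35), and against the CBF gate 1 of 22 was higher and 15 lower (-1.72). The ligands Wnt4 (0.291 against 1.21) and Wnt2b (0.0360 against 0.120), the agonist Rspo3 (0.0540 against 0.136) and the inhibitor Sfrp2 (0.0180 against 0.310) were among them. Wnt5a averaged 0.567 against 0.765 and was above 0 in a larger share of SMCs (37.5%) than of comparison cells (26.7%), so its mean and its share differ in order. The receptor Ryk (2.68 against 1.42) and the secreted Dkk3 (2.11 against 1.37) had the higher values in SMCs, both under 2-fold.

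Of 21 kept genes of the BMP pathway 1 was higher and 6 were lower (median log2 ratio -0.51). The ligand Bmp4 averaged 3.98 against 5.71 and was above 0 in 90.3% of SMCs, and Bmp5 averaged 1.20 against 2.01. Bmp7 (0.0372 against 0.493) and Bmp3 (0.0396 against 0.327) were lower, as was the antagonist Grem1 (0.0600 against 1.02). The higher gene was the target Id4 (1.18 against 0.455). Bmpr1b, a type I receptor that fell below the gene filter, was above 0 in 15.5% of SMCs and 1.04% of the comparison cells.

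Growth factor genes included both extremes, with 4 of 33 kept genes higher, 15 lower and a median log2 ratio of -0.91. Next to Pdgfc, the higher ones were Igf1 (2.92 against 0.867, log2 1.74), Ltbp1, which holds latent TGF-beta in the matrix (2.67 against 0.778), and the coreceptor Tgfbr3 (3.14 against 1.26). Igf1 was above 0 in 79.1% of SMCs. The binding proteins Igfbp3 (0.450 against 6.99), Igfbp4 (0.713 against 8.13) and Igfbp6 (0.510 against 4.99) were all lower. Pdgfra itself averaged 0.255 against 2.99 and was above 0 in 7.43% of SMCs.

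Factors for neurons and pacemaker cells were split, with 3 of 14 kept genes higher and 5 lower (median log2 ratio -0.16). The guidance cue Sema3a averaged 0.848 against 0.105, the neurotrophin Ntf3 0.878 against 0.297 and Gdnf, which enteric neurons need in development, 0.414 against 0.0780. Kitl, the ligand that interstitial cells of Cajal depend on, was lower (0.241 against 1.06), and so were the chemokine Cxcl12 (1.14 against 12.1) and pleiotrophin (Ptn, 0.0168 against 0.322).

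The extracellular matrix list held 1 higher and 19 lower genes of 47 kept (median log2 ratio -0.76). Mfap5, a microfibril protein, was the higher one, at 9.18 against 3.69. It averaged 7.51 in the CBF gate and 0.0811 in the CTF gate. Elastin (Eln, 0.377 against 3.48), Fbln1 (1.18 against 12.4), Fbln2 (0.152 against 2.49) and Col14a1 (0.182 against 2.75) were among the lowest. The basement membrane collagens Col4a1 (6.81 against 6.37) and Col4a2 (3.20 against 3.51) and periostin (Postn, 19 against 9.64) stayed under 2-fold. The 48 genes of the list summed to 182 in SMCs and 303 in the comparison cells. Of 17 early response and stress genes none was higher or lower (median log2 ratio -0.08).

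The 10 genes with the smallest ratio were Ccl21a, Igkc, Igha, Flt1, Plvap, Iglc3, Cd74, Ctla2a, Fabp4 and Kdr. Flt1, Plvap and Kdr are known endothelial genes, and Igkc, Igha, Iglc3 and Cd74 are known immune genes. The sort removed CD45-positive cells, and Ptprc was above 0 in 41 of the 3653 comparison cells (1.12%). Igkc was above 0 in 6.47% of SMCs and 5.37% of the comparison cells although its means were 0.0695 and 11.7, so its ratio rests on few cells with very high values.

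Against the closest classes the lists narrowed only in part. The contractile filament median was 1.12 against the pericyte gate and 2.11 against the CTF gate. It was 3.74, and so larger than against all comparison cells, against the CBF gate. A pericyte gate (Rgs5 at least 10, Epcam below 5, Pecam1 below 3) held 221 cells, and is not a pure class, since 109 of them had Myh11 at 5 or more, 43 of those with Hhip at 5 or more as well, and only 98 of the 221 had Notch3 above 0. For each gate a gene was kept when its mean over the SMCs and the cells of that gate together was at least 0.05. A gene near 0 in the gate could thus be kept through the SMCs alone. Of 9450 genes kept for this comparison 519 were higher in the SMCs (5.49%) and 487 lower (5.15%). The contractile filament list had 9 of 17 genes higher with a median log2 ratio of 1.12, and calcium handling had 4 of 17 higher and 6 lower. The genes furthest above the pericyte gate were Svopl (1.39 against 0.217), Hhip (19.8 against 3.20), the thrombin receptor F2r (5.42 against 0.882), Casq2 (1.97 against 0.339) and Rbp4 (12.5 against 2.45). Furthest below were Vtn (0.0144 against 1.72), Apold1 (0.0216 against 1.53), Notch3 (0.0336 against 2.08), Ndufa4l2 (0.0588 against 2.70) and Ebf1 (0.151 against 5.73), and the channel genes Kcnj8 (0.265 against 2.04) and Abcc9 (0.2998 against 1.65), which form the pericyte potassium channel, were lower too.

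The CTF gate (Pdgfra at least 5, Cd34 below 2, and Myh11, Rgs5, Pecam1 and Epcam under the limits) held 629 cells. Pdgfra, Cd34 and Col1a1, which chose the fibroblast gates, were left out of the counts against both of them. Of 9456 genes kept, 731 were higher in SMCs (7.73%) and 701 lower (7.41%). Contractile genes were lower in CTFs but not absent, with Acta2 at 9.74, Tagln at 7.43 and Mylk at 2.24, whereas Actg2 (0.0238), Cnn1 (0.0127) and Lmod1 (0.00318) were near 0 and Actc1 was listed at 0 there. The genes furthest below the CTF gate were Bmp7 (0.0372 against 1.84), Col4a6 (0.0324 against 1.32), Fgf9 (0.0276 against 1.16), Pla2g7 (0.0288 against 1.17) and Bmp3 (0.0396 against 1.36). Casq2 and Rbp4, which stood out against pericytes, averaged 1.40 and 6.07 in the CTF gate.

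The CBF gate (Cd34 at least 2, Col1a1 at least 5, Myh11 below 5 and the other limits) held 1513 cells, and 655 of 9661 kept genes were higher in SMCs (6.78%) and 942 lower (9.75%). Acta2 averaged 0.802 and Mylk 0.190 in this gate. The matrix list had 26 of 46 genes lower in SMCs against CBFs and 19 of 46 against CTFs, but only 4 of 46, with 5 higher (median log2 ratio 0.16), against the pericyte gate. The genes furthest below the CBF gate were Iglc3, the complement gene C3 (0.0863 against 5.93), Igha, Cilp (0.0468 against 2.78) and Pi16 (0.0336 against 1.86). The SMCs are the same in all of these comparisons and the cells of the 3 gates are part of the comparison cells, so the comparisons are not independent.

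Within the class several other muscle genes went up with Myh11. The 80 SMCs with Myh11 at 5 to 9 had means of 9.75 for Actg2, 8.94 for Hhip and 3.83 for Cnn1. In the 287 SMCs with 10 to 19 these were 15.5, 16.2 and 5.90, in the 374 with 20 to 39 they were 19.997, 21.9 and 8.39, and in the 93 with 40 to 78 they were 26.2, 31.3 and 11.9. Des averaged 0.9, 1.43, 2.21 and 2.05 in these bins, and so did not rise in the last. Dcn, a fibroblast matrix gene, went from 20.7 to 10.9 over the same bins and Pdgfra from 0.725 to 0.0108. The median number of genes per cell went from 2018 to 3137 along these bins and the mitochondrial median from 11.0% to 8.17%. Their part in the order was not tested.

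On both sides of the Myh11 limit the values were as follows. The 49 cells just outside (Myh11 3 or 4) had means of 4.51 for Actg2, 2.82 for Hhip and 3.29 for Pdgfra, and the 29 SMCs just inside (5 or 6) had 7.72, 8.55 and 0.828. Along Rgs5, the 21 SMCs with 8 or 9 had means of 12.7 for Hhip, 14.4 for Actg2, 7.86 for Cnn1 and 0.905 for Des. In the 23 cells with 10 to 12, just outside, these were 7.74, 15.7, 7.04 and 2.26, so Actg2 and Des were not lower there. In all, 1024 cells had Myh11 at 5 or more, of which 43 were left out by Epcam, 38 by Pecam1 and 109 by Rgs5. Outside the class 36 comparison cells had Actg2 at 5 or more with Myh11 below 5.

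**Figure D3:**
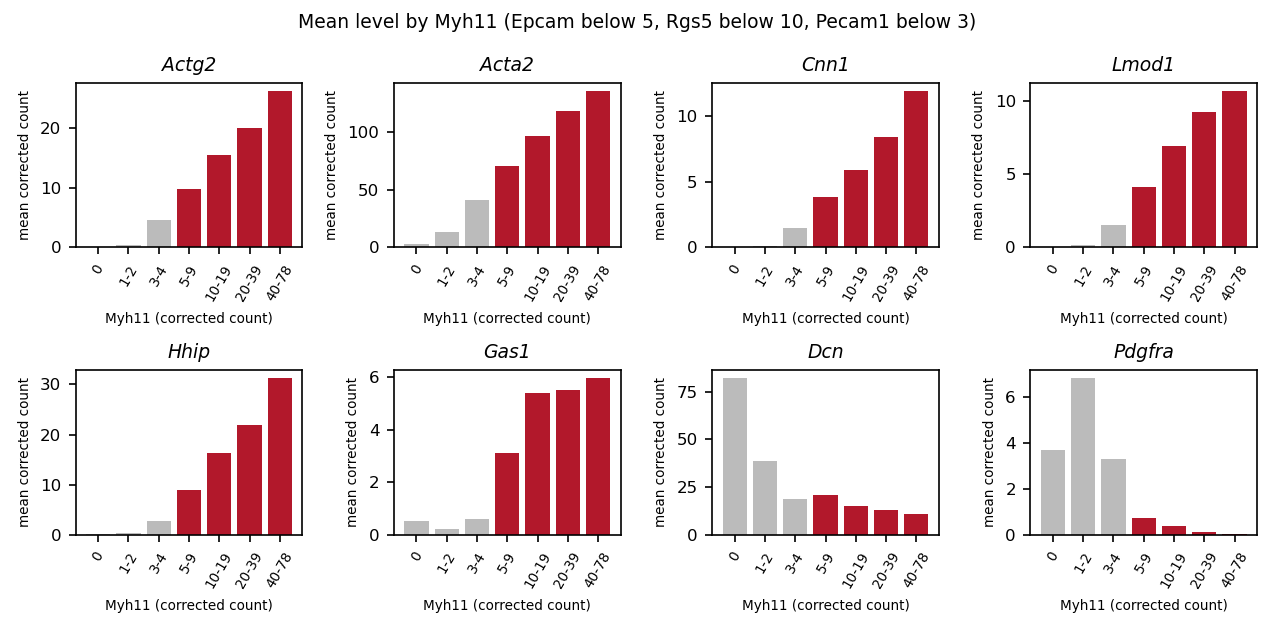
Mean corrected count of 8 genes in cells with Epcam below 5, Rgs5 below 10 and Pecam1 below 3, by the corrected count of Myh11 in the cell, with SMCs in red and the cells under the limit in grey. Actg2, Acta2, Cnn1, Lmod1 and Hhip are higher in each bin than in the bin before it from a Myh11 of 1 on, while Pdgfra is at most 0.725 in the SMC bins and 6.80 in the cells with Myh11 at 1 or 2.

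Clustering the 834 SMCs by themselves, without the 4 genes of the rule, gave 7 sub-clusters of 215, 170, 162, 154, 64, 51 and 18 cells. The genes that lead a sub-cluster took part in forming it and are given as a description. The 4 largest shared the contractile programme, with Actg2 from 16.4 to 22.6 and Hhip from 15.7 to 26.9, and differed by short lists of genes. They also differed in the median number of genes, 2335 in sub-cluster 1 and 3179.5 in sub-cluster 2. Their mitochondrial medians were 11.4% and 7.63%, and the part of these in the split was not tested. At a resolution of 0.2 in place of 0.4, sub-clusters 1, 3 and 4 did not stay apart. Of their cells 215 of 215, 156 of 162 and 112 of 154 fell into 1 cluster of 506. Sub-clusters 2 and 6 did not stay apart either, with 165 of 170 and 51 of 51 cells in 1 cluster of 264. Sub-cluster 5 stayed a cluster of 64. Sub-cluster 1 was led by haemoglobin genes only because 2 of its 215 cells had Hbb-bs at 3228 and 2039, while its next highest cell had 4. Without those cells it was led by the light chain Myl4 (1.08 against 0.425) and Actc1 (2.45 against 1.43), leaving aside Rgs5 of the rule. Sub-cluster 2 was led by Nr4a3, Cxcl1, Nfil3, Adamts1 and Atf3, early response genes or targets of such genes, and its early response list summed to 247, against 118 to 175 in the other 6.

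Sub-cluster 3 was led by the plasminogen activator Plau (1.09 against 0.479 in the other SMCs), Tbx3, Aldh1a1, Sgk1 and Cxcl14. Sub-cluster 4 was led by Iyd (0.831 against 0.260), Gpc3 (1.32 against 0.459), Chrdl2 (1.34 against 0.571), Thy1 and Svopl (2.48 against 1.15). The log2 ratios of these 10 genes were all between 0.90 and 1.64, far below those that led sub-clusters 5, 6 and 7. Gpc3 averaged 0.142 in sub-cluster 3.

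Sub-cluster 5 held 64 cells with the fewest genes (median 1731.5). It was led by Fabp4, Rab25, Pglyrp1, Gm5485 and Tstd1. Its epithelial markers, Epcam included, summed to 17.4 per cell against 1.94 to 4.58 in the other sub-clusters, and Cdh1 averaged 0.578 against 0.0338. Its endothelial markers, Pecam1 included, also had the highest sum, at 1.20 against 0.0326 to 0.333. Fabp4 was itself among the genes with the smallest ratio of SMCs over the comparison cells. Muscle genes were lower but present, with Actg2 at 12.2 and Hhip at 8.45. The part of the low gene number in these values was not tested.

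Sub-cluster 6 held 51 cells with the most genes (median 3847). Pdgfra averaged 3.78 against 0.0255 in the other SMCs, and Clec3b (8.98 against 0.112), C3 (1.31 against 0.00639), Entpd2 (1.59 against 0.0102) and Cxcl13, listed at 0 in the other SMCs, led it with Pdgfra. Its fibroblast markers summed to 254.8 per cell, near the 255.6 of the comparison cells, while Actg2 averaged 10.6 and Hhip 14.6. Of its 51 cells 39 (76.5%) were among the 5% of all cells with the highest Scrublet doublet scores, against 0 to 3.26% of the cells of the other sub-clusters. SMC genes, fibroblast genes, high gene numbers and high doublet scores thus occurred in the same cells, and the part of doublets in this sub-cluster was not tested beyond the score.

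Sub-cluster 7 held 18 cells that stood furthest from the rest. Pcp4 averaged 7.11, and Rergl 2.50 and the transcription factor Hand1 1.5, all of them listed at 0 in the other SMCs. Phospholamban (Pln) averaged 4.67 against 0.00858. Des averaged 7.83, its highest level among the sub-clusters, whereas Hhip averaged 3.44 and was at 0 in 11 of the 18 cells. Dcn averaged 2.17 and Col3a1 3.00, the lowest levels of all 7, and Foxl1 0.0556.

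The 18 cells also had higher means for markers of interstitial cells of Cajal (Kit 1.06, Ano1 2.17). This list, which includes Hand1, summed to 5.28 against 0.0156 to 0.647 elsewhere. Kit was above 0 in only 7 and Hand1 in only 5 of all 834 SMCs. Each was thus at 0 in most of the 18 cells. Pericyte markers were higher too (Notch3 1.11, with a list sum, Rgs5 included, of 13.4 against 1.78 to 3.78). The median mitochondrial share of the 18 cells was 18.3%, the highest of the 7, and none of them was among the high Scrublet scores. They were 1 cluster of 18 at a resolution of 0.8 and fell into a larger one at 0.2, as did 11 of them with 10 principal components. No list fixed for this work names them, and they keep their number. Across the whole class the 38 SMCs with Hhip at 0, which include 11 of these cells, had a Des mean of 4.24 against 1.68 in the SMCs with Hhip above 0.

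**Figure D4:**
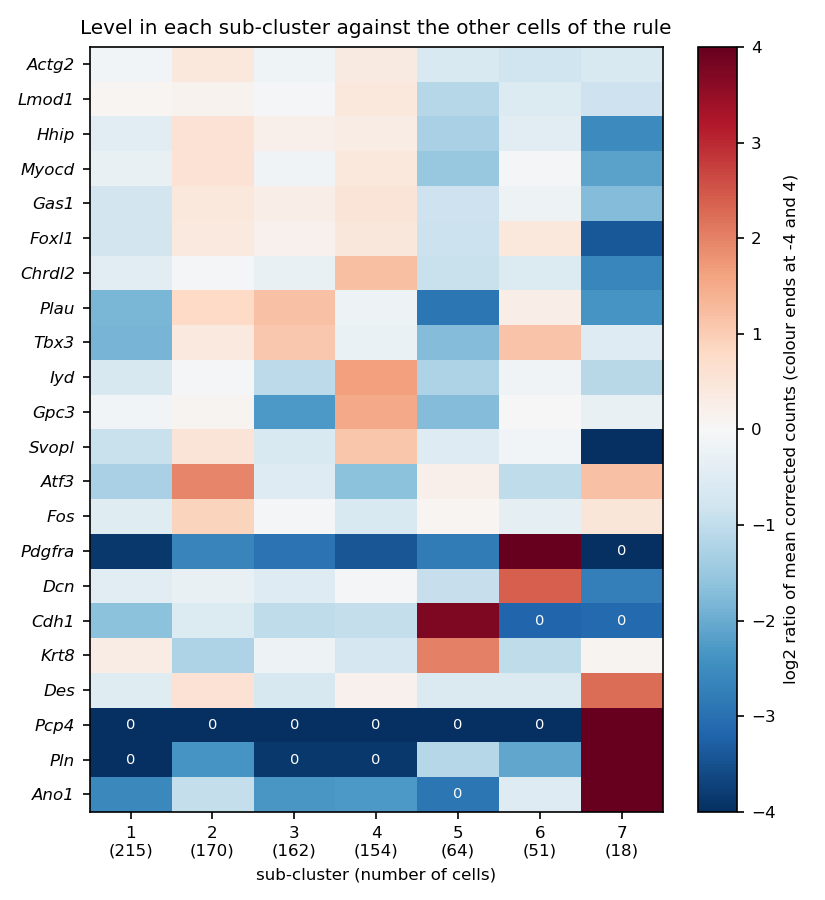
Log2 ratio of the mean corrected count in each sub-cluster over the other SMCs (colour, ending at -4 and 4) for 22 genes, with the number of cells under each column and a white 0 where a gene was at 0 in the sub-cluster. Pdgfra and Dcn stand out in sub-cluster 6, Cdh1 in sub-cluster 5 and Pcp4, Pln and Ano1 in sub-cluster 7, whose Hhip, Foxl1 and Chrdl2 are the lowest of the row.

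Leaving out the 115 cells of sub-clusters 5 and 6 changed the lists little. The contractile median was then 2.78 and the dense body median 1.70, and the matrix and Wnt medians were -0.84 and -1.45. In the GFP-positive reporter library 1 of 4409 cells met the rule, with Actg2 at 13, Hhip at 8 and Pdgfra at 0. Its values are on another scale (median total 3150 against 8972), and its sort kept cells in which Pdgfra is active, so the count is no measure of how common SMCs are. A single cell barcode occurred in both libraries.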

How the data were processed

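Reads were aligned to mm10 with Cell Ranger and processed in Seurat 3.1 under R 3.6.2, per the labels. The score values as deposited by the authors are SCTransform corrected counts in whole numbers, and a second deposited table holds the natural log of the same numbers after adding 1. Depth and unique molecular identifiers cannot be recovered from either. The cells and gene lists were chosen with earlier results of these data known, which supports nothing by itself. Means, shares and log2 ratios were computed in Python 3.11.15 (numpy 2.4.6, scipy 1.17.1). Only the log2 ratios were tested on simulated data, which were Poisson counts. Sub-clusters came from the log values in scanpy 1.11.5 (2000 variable genes, 20 principal components, 15 neighbours, Leiden at 0.4). Scrublet called 7 of 7495 cells, too few for a working caller, so no cell was removed and doublets were weighed only by score. Gene positions are those of GENCODE M21 on GRCm38, joined by symbol (97.7% matched). Named genes are the 25 with the largest ratio (mean of at least 0.5), the 10 with the smallest (at least 1 in the other cells), 5 in each direction per gate (at least 1), the top 5 of each sub-cluster, and list genes. Some genes that the rule names are not reported here. Sub-clusters have further genes chosen after their values were seen.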

Additional observations from a re-analysis of the deposited data

Results flagged for a closer look

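In the Pdgfra-H2B-eGFP reporter library, whose cells enter no comparison above, Myh11 was above 0 in 70 of 4409 cells (1.59%), more than the 3 cells that a count of 0 allows. In the wild-type library 2.83% of epithelial cells, which should lack the gene, had Myh11 above 0, at a median total of 9648 against 3150 in the reporter library, so the share is not read as expression. Its highest value there was 14, and 3 cells of that library had Actg2 at 5 or more.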

How the results depend on the processing

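No paired analysis was possible because the wild-type colon is a single library. The intervals of shares cover counting error only, the other values carry no error estimate, and unique molecular identifiers are not known. Under all 15 alternatives to which they apply, the medians of the contractile filament list (2.45 to 2.92), the dense body list (0.79 to 1.74), the hedgehog pathway (0.10 to 1.10), the Wnt pathway (-1.45 to -0.06) and the matrix list (-1.06 to -0.20) kept their sign. The medians of the neurotrophic (-0.67 to 0.03) and early response (-0.13 to 0.20) lists did not. Among single genes, Fabp4 turned to a log2 ratio of 0.65 when only the CTF and CBF gates, which keep Pecam1 below 3, were the other cells. Of the 35 leading and lowest genes, 31 ratios moved in that setting (Actg2 to 8.70), 32 with the difference of mean log values (Actc1 to 0.78, Acta2 to 5.39), 26 with a pseudocount of 0.1 (Actc1 to 3.74, Chrdl2 to 2.88) and 15 with Rgs5 below 3 (Actc1 to 4.07, Hhip to 4.28, Actg2 to 3.90), each by more than the 1.5-fold limit. With Rgs5 below 3 the SMCs left out were counted among the comparison cells, and their part in these moves was not tested. Without cells of 10% or more mitochondrial values 451 SMCs remained and 1149 genes were higher than in the pericyte gate.

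The difference of mean log values gave 79 higher and 31 lower genes against the comparison cells, 48 and 10 against the pericyte gate, 70 and 63 against the CTF gate and 87 and 77 against the CBF gate. Its medians were 0.79 for dense bodies, -0.041 for agonist receptors, 0.10 for hedgehog, -0.062 for Wnt and -0.11 for growth factors. With each cell thinned to 1000, 1415 genes were higher and 1078 lower than in the pericyte gate, and 1113 lower than in the CTF gate. A pseudocount of 0.1 left 557 lower genes against the comparison cells, 206 higher and 285 lower against the pericyte gate, 445 and 434 against the CTF gate and 431 and 500 against the CBF gate. With no gene filter 1760 genes were lower against the comparison cells, 814 higher and 1225 lower against the pericyte gate, and 1108 and 1153 against the CTF gate. With a filter of 0.2, where fewer genes enter, the counts were 279 and 552 against the comparison cells, 285 and 194 against the pericyte gate, 419 and 381 against the CTF gate and 387 and 527 against the CBF gate. A resolution of 0.2 gave 3 sub-clusters, and a limit of 3 put 63 SMCs under the Hhip limit. Leaving out sub-clusters 5 and 6, or the highest doublet scores, was chosen after seeing the data, and the contractile median was 2.78 under both. The causes of the other changes were not tested.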
